A study of Homo sapiens with 12 samples.

Results

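Chromatin at the starts of 10 genes for enzymes that add or remove acetyl groups on histones was examined in MDA-MB-231, an established line of human breast cancer of the triple negative type. The genes were named by function and not by any measured value, though with earlier results of these data known. They were 5 acetyltransferases (KAT2A, KAT2B, EP300, CREBBP and KAT5) and 5 deacetylases (HDAC1, HDAC2, HDAC3, SIRT1 and SIRT6). Each was represented by an hg19 window reaching 5 kb to either side of the gene's first base, 10001 bp in all. All 10 windows were measured, and they were read against 11387 windows of the same length centred on H3K9ac regions that the authors kept as reproducible in both conditions. Acetylation (H3K9ac) and dimethylation (H3K9me2) of lysine 9 of histone H3 were mapped by chromatin immunoprecipitation and sequencing in cells left untreated and in cells exposed to 500 µM DETA/NO, a donor that releases nitric oxide slowly, for 24 h after overnight serum starvation. Each condition and mark had 2 biological replicates, which makes 8 libraries, and the 4 inputs were not analysed here. The series set the untreated cells as the control, to ask where nitric oxide altered both marks.

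Acetyltransferases transfer an acetyl group from acetyl-CoA to histone lysines, and deacetylases remove it. H3K9ac is itself a product of the KAT2A and KAT2B enzymes and a substrate of HDAC1, HDAC2, HDAC3 and the sirtuins, so the promoters of these genes carry the mark that their proteins write and erase. At active genes the mark sits on the nucleosomes that flank the start, while H3K9me2 forms broad silent domains.

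RefSeq promoters, 250 bases before to 50 after a gene's start on GRCh38.p14, were matched for all 10 genes. They are shown for the acetyltransferases with the largest and the smallest difference in covered H3K9ac between conditions, KAT2B and KAT2A, and for HDAC1, the gene whose start lay inside a peak in the fewest libraries. Capitals mark CpG dinucleotides, whose number differs widely between KAT2A and KAT2B.
KAT2A: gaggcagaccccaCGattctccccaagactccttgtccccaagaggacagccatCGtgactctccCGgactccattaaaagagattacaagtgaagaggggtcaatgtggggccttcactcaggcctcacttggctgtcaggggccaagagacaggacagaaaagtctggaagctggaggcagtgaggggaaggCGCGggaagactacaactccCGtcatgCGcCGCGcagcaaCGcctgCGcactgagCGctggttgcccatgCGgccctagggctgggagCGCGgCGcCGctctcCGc
KAT2B: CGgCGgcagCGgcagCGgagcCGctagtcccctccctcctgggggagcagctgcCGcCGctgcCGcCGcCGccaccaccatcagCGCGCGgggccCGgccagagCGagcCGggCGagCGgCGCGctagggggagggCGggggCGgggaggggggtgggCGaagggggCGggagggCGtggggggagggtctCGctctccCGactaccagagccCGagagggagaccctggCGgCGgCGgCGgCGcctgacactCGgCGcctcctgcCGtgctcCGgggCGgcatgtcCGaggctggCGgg
HDAC1: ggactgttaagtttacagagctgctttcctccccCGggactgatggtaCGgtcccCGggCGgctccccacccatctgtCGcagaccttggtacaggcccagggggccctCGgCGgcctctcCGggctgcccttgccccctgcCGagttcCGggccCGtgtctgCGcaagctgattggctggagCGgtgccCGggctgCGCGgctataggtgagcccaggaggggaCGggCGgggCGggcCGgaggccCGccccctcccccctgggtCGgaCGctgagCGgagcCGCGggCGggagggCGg
The KAT2A stretch holds 18 CpG, the fewest of the 10, and 62.0% G and C. The KAT2B stretch holds 40 CpG and 80.3% G and C, and HDAC1 lies between them with 28 CpG and 73.7%. The median over all 35116 promoters of the table was 14 CpG. The RefSeq starts are on another build than the windows. How far each lies from the hg19 start was not checked, so a stretch may not match the start used for its window.

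The deposited lists give called intervals and scores, not reads, so the depth behind each interval is unknown. The H3K9ac lists of single libraries held 59724 to 120630 peaks over 22.8 to 52.1 Mb, with untreated replicate 2 the shortest list in both respects. The H3K9me2 lists held 10590 to 14554 islands over 226.3 to 284.9 Mb. No lineage markers were measured here, so the labelled cell type was not tested.

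Both treated libraries had more H3K9ac in the window than both untreated libraries at 8 of the 10 gene starts, and at none was it the reverse. The comparison windows behaved alike: 86.1% had both treated libraries higher and 0.536% both lower. The 10 genes thus took part in a broad difference and did not stand apart from it in number. The median window of the 10 was covered by 1838.5 and 1491.5 bp in untreated replicates 1 and 2 and by 3504 and 2559.5 bp in treated replicates 1 and 2. The comparison windows had medians of 1779 and 1305 bp untreated and 3060 and 2388 bp treated. The median difference in covered length was 1280.25 bp for the 10 genes and 1157.5 bp for the comparison windows. The acetyltransferases had a median difference of 1389.5 bp and the deacetylases 986.5 bp, with 4 of 5 in each class free of overlap between conditions. With 2 libraries against 2, the exact two-sided permutation test of a single gene cannot give a p below 0.333 (0.417 adjusted over the 10 genes), and that was its value at the 8 genes, so covered length at a single start could not pass this test.

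**Figure D1:**
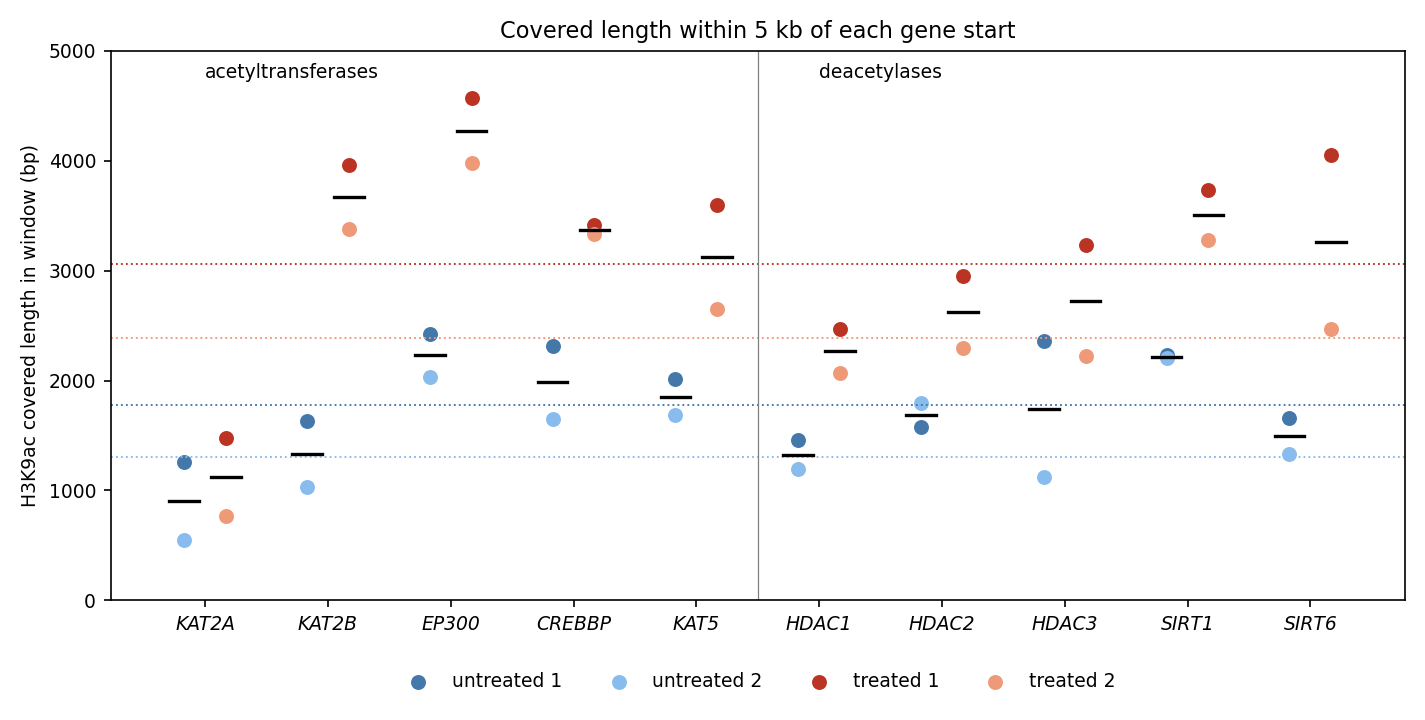
H3K9ac covered length (bp) within 5 kb of each gene start, 1 point per library, with short black bars at the mean of the 2 libraries of a condition and dotted lines at each library's median over 11387 comparison windows. KAT2A and HDAC3 have overlapping conditions, and KAT2A and HDAC1 lie below the dotted line of the same library in all 4 libraries.

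In a fit across all windows, 3 of the 10 genes rose at an adjusted p under 0.05: KAT2B, EP300 and SIRT6. No gene was lower. Over the whole table of 11397 windows, 33.6% were called higher and 0.325% lower, so the share among the 10 is near the background. The fit used limma on the arcsine square root of the covered share, with Benjamini-Hochberg adjustment over the whole table. Replicates measure only the spread between these cultures, and limma pooled that spread over windows. Without its mean-variance trend the SE was 0.0716 at each of the 10 genes. The SEs given below thus reflect little or nothing of a gene's own SD. The median difference over the table was 0.147 on this scale, and the median of the 10 genes was 0.145. When the libraries were given equal distributions by quantile normalization the table's median moved to -0.0045, the calls over the table went from 3827 higher and 37 lower to 92 higher and 52 lower, no member was called, and 7 of the 10 genes turned negative; KAT2B (0.126), SIRT6 (0.052) and EP300 (0.039) stayed positive. The number called also depended on single libraries: limma called 1 gene, KAT2B, without untreated replicate 1, 0 without untreated replicate 2, 0 without treated replicate 1 and 4 without treated replicate 2.

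KAT2A and KAT2B are paralogues, the alternative catalytic subunits of the SAGA and ATAC coactivator complexes, and their starts lay at opposite ends of the group. At KAT2B (chromosome 3, 20076524 to 20086524), H3K9ac covered 1631 and 1028 bp untreated and 3964 and 3383 bp treated. The treated values were clearly apart from the untreated ones, and the mean was 2.76 times as high. The limma difference was 0.280 ± 0.074 (SE; adjusted p = 0.0038), the largest of the 10. The reproducible region at the start went from 1780 bp (20081215 to 20082994) in untreated to 3579 bp (20080340 to 20083918) in treated cells, with 875 bp added upstream and 924 bp downstream. A further reproducible region of treated cells lay inside the gene, 3600 to 4150 bp past the start, where both treated libraries and neither untreated library had a peak.

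At KAT2A (chromosome 17, 40268382 to 40278382), the covered length was 1259 and 550 bp untreated and 1476 and 768 bp treated. These values overlapped between conditions, the limma difference was 0.038 ± 0.063 (SE; adjusted p = 0.569), and the difference in means of 217.5 bp turned to -137 bp without untreated replicate 2 and to -136.5 bp without treated replicate 1. It was also negative, at -88.5 bp, within 2 kb of the start, and it was 994 bp within 10 kb. RefSeq lists HSPB9 and RAB5C as near neighbours, and peaks in the wider window were not assigned to one gene. KAT2A was the only gene of the 10 whose reproducible region was shorter in treated cells, 557 bp (40272873 to 40273429) against 800 bp (40272595 to 40273394). This shortening rests on 1 library, as the 800 bp were the peak of untreated replicate 1. The peak of untreated replicate 2 there was 375 bp wide, against 525 and 557 bp in the treated libraries. The short region was not a weak one: its peak ranked above 98.7% and 95.5% of the peaks of the untreated lists and above 92.5% and 90.7% of those of the treated lists by the authors' score. It lay almost wholly downstream of the start, with no more than 47 bp of any library's coverage upstream. The excess of KAT2B over KAT2A, taken within each library, was 372 and 478 bp untreated and 2488 and 2615 bp treated, so the paralogues were near each other without DETA/NO and far apart with it. Among 3 such paralogue pairs the exact two-sided permutation p was 0.333 here, its lowest possible value (adjusted p = 0.500).

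EP300 and CREBBP encode p300 and CBP, large related acetyltransferases recruited by many transcription factors. At EP300 (chromosome 22, 41483614 to 41493614), H3K9ac covered 2422 and 2035 bp untreated and 4569 and 3978 bp treated, the longest coverage of the 10 in each treated library. The conditions did not overlap, and the limma difference was 0.221 ± 0.085 (SE; adjusted p = 0.037). The reproducible region grew from 1494 to 3782 bp, and 2282 bp of the growth was on the downstream side, into the gene, against 6 bp upstream. A separate upstream peak was called in untreated replicate 1 and in both treated libraries, and entered the reproducible set of treated cells alone, at positions -1724 to -1109 from the start. RefSeq lists the miRNA gene MIR1281 beside EP300.

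At CREBBP (chromosome 16, 3925121 to 3935121), the values were 2316 and 1653 bp untreated and 3411 and 3337 bp treated. The treated libraries were higher and nearly equal, with an SD of 52.3 bp against 469 bp in the untreated libraries, and the limma difference of 0.159 ± 0.078 (SE) did not pass (adjusted p = 0.083). A single peak of 3411 and 3337 bp spanned the start in the treated libraries, where untreated replicate 2 had 3 separate peaks. The reproducible region was 2111 bp in untreated and 3495 bp in treated cells, with 323 bp added upstream and 1061 bp downstream. EP300 exceeded CREBBP by 106 and 382 bp untreated and by 1158 and 641 bp treated (exact two-sided permutation p = 0.333, adjusted p = 0.500); this difference of 655.5 bp between conditions turned to -146 bp when windows reached only 2 kb.

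KAT5 encodes TIP60, the catalytic subunit of the NuA4 complex, which acetylates histones H4 and H2A and takes part in the DNA damage response. In its window (chromosome 11, 65474473 to 65484473), H3K9ac covered 2014 and 1690 bp untreated and 3597 and 2652 bp treated. The conditions did not overlap, and the treated libraries had an SD of 668 bp. The limma difference of 0.148 ± 0.075 (SE) did not pass (adjusted p = 0.095). A pair of untreated reproducible regions of 1533 and 529 bp stood where treated cells had 1 of 3137 bp (65477645 to 65480781). Its limits lay 832 bp further upstream and 772 bp further downstream than those of the region at the start, and the downstream stretch took in the second untreated region. Without treated replicate 1 the difference in covered length was 800 bp against 1272.5 bp.

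HDAC1 and HDAC2 are paralogous zinc-dependent deacetylases that share the Sin3, NuRD and CoREST complexes, and HDAC3 is the catalytic subunit of the NCoR and SMRT corepressor complexes. At HDAC1 (chromosome 1, 32752708 to 32762708), the covered length was 1458 and 1196 bp untreated and 2473 and 2065 bp treated. Conditions did not overlap, and limma gave 0.124 ± 0.067 (SE; adjusted p = 0.112). HDAC1 was the only gene whose first base lay outside every untreated peak: the nearest peaks began 16 and 14 bp past it, whereas the treated peaks ran from 811 and 59 bp before it. The reproducible region went from 938 bp, wholly inside the gene, to 2374 bp across the start. That treated width is the peak of treated replicate 1 alone. Treated replicate 2 had separate peaks over this stretch, and the one on the start was 1151 bp wide.

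At HDAC2 (chromosome 6, 114287359 to 114297359), H3K9ac covered 1577 and 1792 bp untreated and 2951 and 2300 bp treated, without overlap (limma difference 0.114 ± 0.071 SE, adjusted p = 0.156). This was the only gene at which untreated replicate 2 was covered further than untreated replicate 1. The reproducible region was 1814 bp in untreated and 2951 bp in treated cells, and 930 of the added bases lay downstream against 207 upstream. RefSeq lists the lncRNA gene HDAC2-AS2 beside HDAC2, and its part in this coverage was not tested. HDAC2 exceeded HDAC1 by 119 and 596 bp untreated and by 478 and 235 bp treated (exact two-sided permutation p = 1, in a design that cannot pass). The mean excess was 357.5 bp untreated and 356.5 bp treated.

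At HDAC3 (chromosome 5, 141011423 to 141021423), the values were 2358 and 1120 bp untreated and 3231 and 2220 bp treated. Untreated replicate 1 lay above treated replicate 2, so the conditions overlapped, and limma gave 0.123 ± 0.072 (SE; adjusted p = 0.134). Single libraries set its size: the difference in means of 986.5 bp was 367.5 bp without untreated replicate 2, 481 bp without treated replicate 1, 1605.5 bp without untreated replicate 1 and 1492 bp without treated replicate 2. The reproducible region at 1882 and 2518 bp changed by 1.34 times, the smallest growth among the 9 genes whose region grew. RefSeq lists RELL2 and FCHSD1 as near neighbours of HDAC3, and the part of their promoters in this coverage was not tested.

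SIRT1 and SIRT6 are NAD-dependent deacetylases, and SIRT6 acts on H3K9ac itself. At SIRT1 (chromosome 10, 69639427 to 69649427), H3K9ac covered 2235 and 2201 bp untreated and 3736 and 3276 bp treated. The untreated libraries were closer here than at any other gene, with an SD of 24.0 bp, and the treated ones lay well above them. The limma difference of 0.143 ± 0.080 (SE) did not pass (adjusted p = 0.123), and its pooled SE does not reflect that small SD. The reproducible region at the start was 1231 bp in untreated cells, with a second of 767 bp behind it, and 3602 bp in treated cells. That single region was 2.93 times as wide as the first, the largest such ratio of the 10, but this leaves out the second untreated region. With all reproducible regions of the window counted, SIRT1 went from 1998 to 3602 bp. By that measure EP300 grew more, from 1494 to 4398 bp.

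At SIRT6 (chromosome 19, 4177596 to 4187596), the covered length was 1663 and 1330 bp untreated and 4051 and 2467 bp treated. It rose by limma (difference 0.208 ± 0.073 SE, adjusted p = 0.024). The treated libraries had an SD of 1120 bp, the widest of the 10, which the pooled SE does not reflect. With all merged regions as comparison windows limma gave SIRT6 an adjusted p of 0.063, which ends the call. Without treated replicate 1 the difference was 0.123 (970.5 bp against 1762.5 bp) and did not pass (limma adjusted p = 0.376). The reproducible region was 1472 bp in untreated and 2802 bp in treated cells. Both treated libraries had a further upstream peak, at positions -4659 to -3931 and -4300 to -4012 from the start. RefSeq lists ANKRD24 as a near neighbour of SIRT6, and which gene this peak or the coverage belongs to was not tested. Neither untreated library had a peak there, and the place was not among the reproducible regions.

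**Figure D2:**
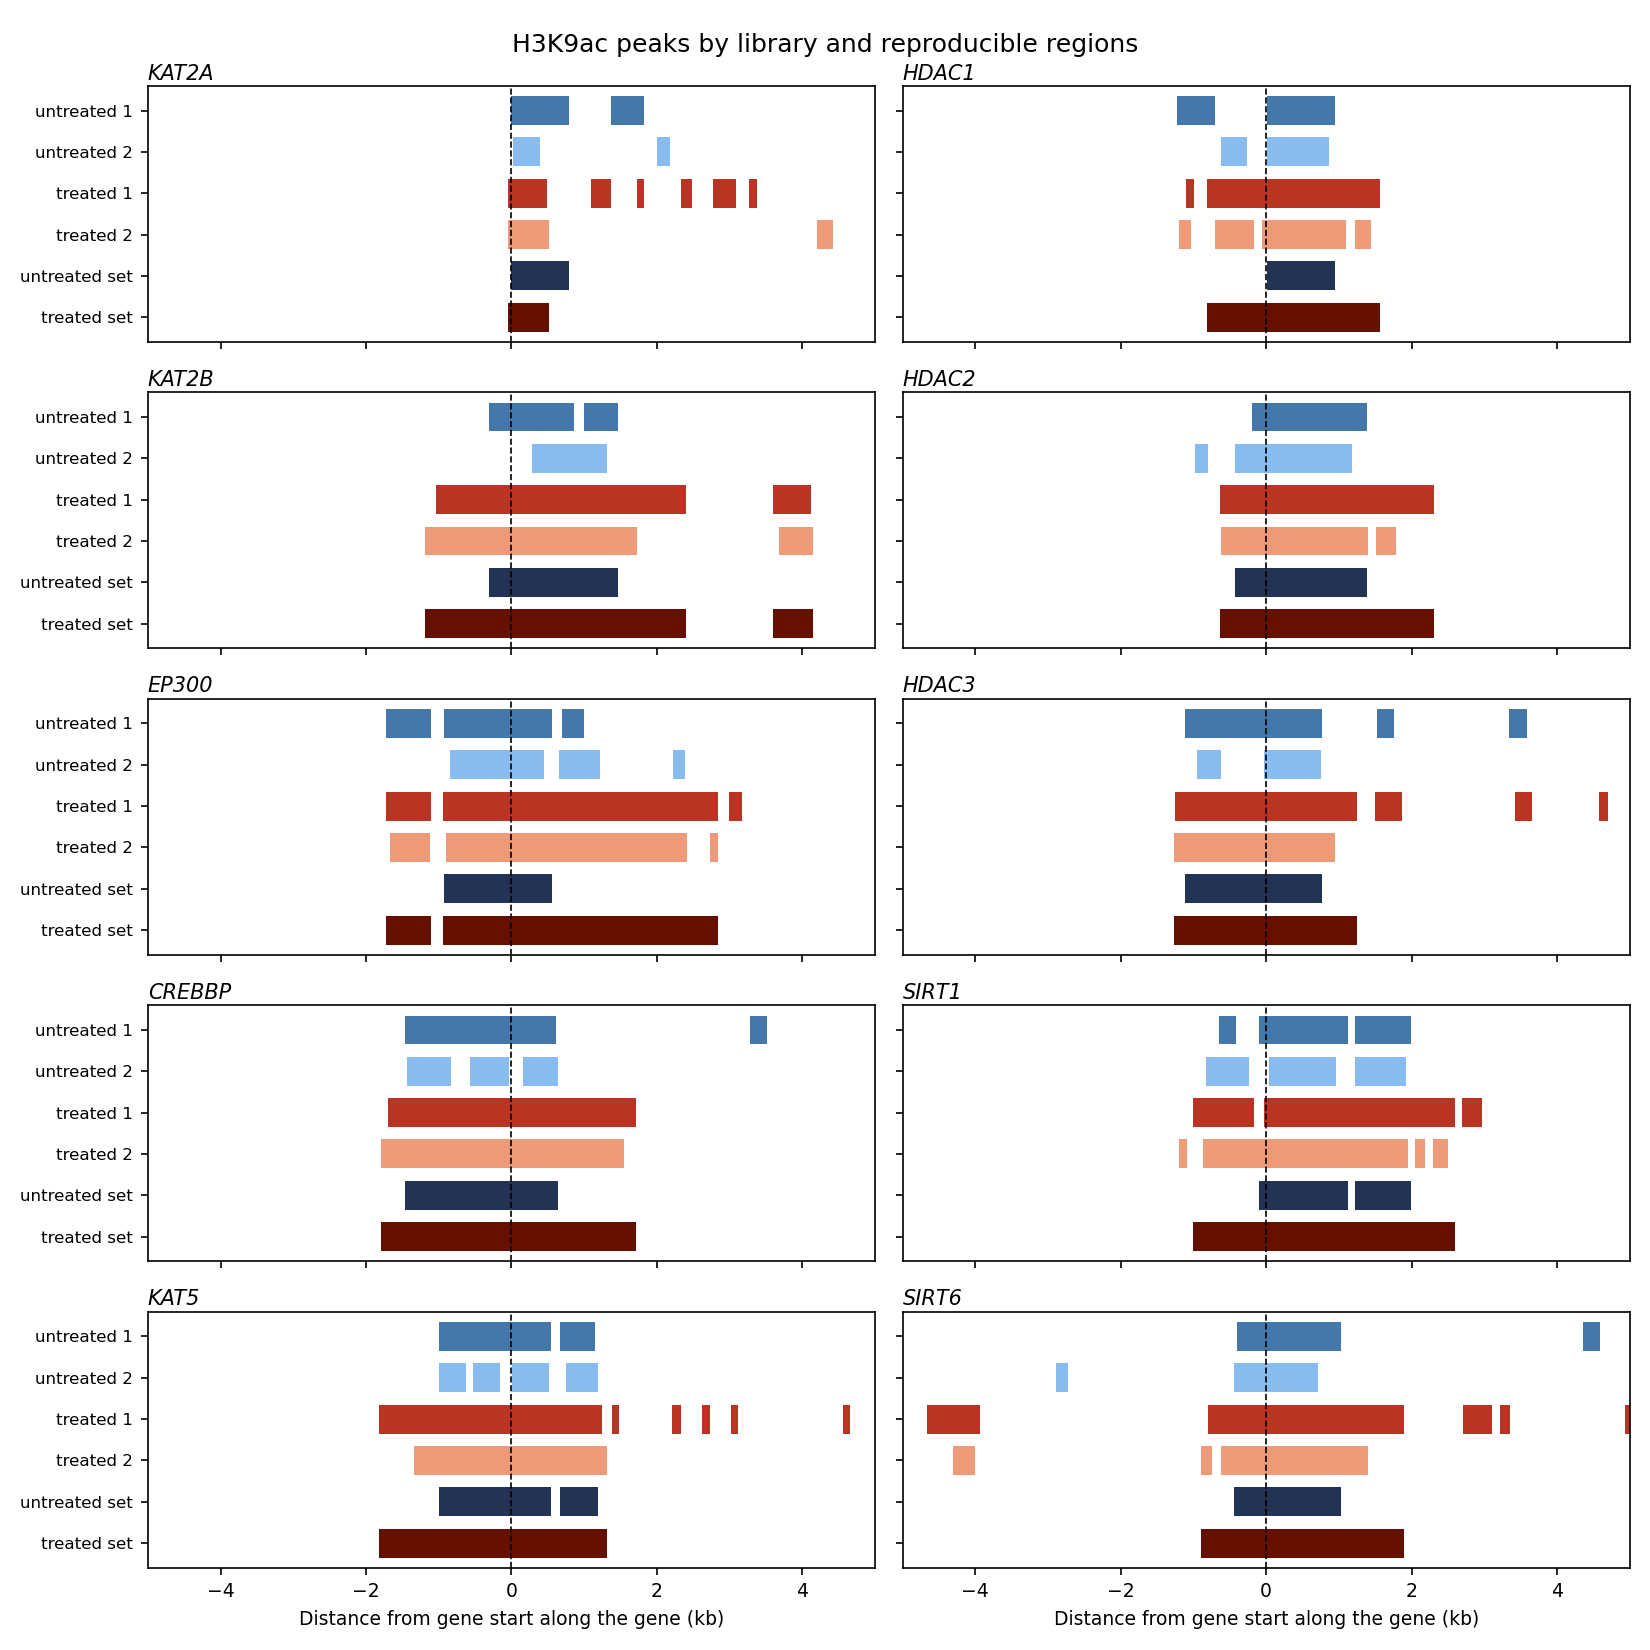
Called H3K9ac intervals within 5 kb of each gene start, 1 row per library and 1 for each condition's reproducible set, against distance along the gene (kb; negative is upstream, the dashed line is the start). Treated regions are wider than untreated ones at every gene but KAT2A, and HDAC1 has no untreated peak on its start.

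The authors' reproducible regions covered more of the window in treated cells at 9 of the 10 genes, against 97.6% of the comparison windows. There is 1 such set per condition, so this has no replicate check. The median width at the start was 1513.5 bp untreated and 3044 bp treated. All 9 regions that grew did so on both sides, though by only 6 bp upstream at EP300. The median over the 10 genes was 390.5 bp upstream and 898 bp downstream. At KAT5 and SIRT1 a pair of untreated regions stood against 1 treated region. Their downstream growth of 772 and 1466 bp was measured from the first of the pair. It therefore includes bases of the second, already reproducible in untreated cells, which raises the downstream median. At these starts a region reached the outer limits of the joined peaks of both libraries, so 1 library can set its width.

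The called mark lay mainly inside the genes. Of the 5 kb on each side of the start, the downstream side was covered further in 8 and 9 of the 10 genes untreated and in 9 and 7 treated. Upstream coverage had medians of 458.5 and 596.5 bp untreated and 1151.5 and 1126 bp treated, and both treated libraries exceeded both untreated at 9 genes. Downstream medians were 1242.5 and 901.5 bp untreated and 2142 and 1473 bp treated, with 8 genes free of overlap. The comparison windows have no direction, and on either side of their middle 77.6% had both treated libraries higher, so these counts too are near the background. At 1000 bp past the start, 4 and 4 of the genes were under an untreated peak and 9 and 8 under a treated one. At 1000 bp before it the numbers were 3 and 1 against 6 and 4. At 2000 bp upstream no gene was under a peak in any library.

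The gene's first base was under a peak in 9 genes in untreated replicate 1, in 4 in untreated replicate 2 and in all 10 in both treated libraries. In untreated replicate 2 the mark stopped short of the start at KAT2A (19 bp), KAT2B (284 bp), CREBBP (31 bp), KAT5 (3 bp), HDAC1 (14 bp) and SIRT1 (36 bp). EP300, HDAC2, HDAC3 and SIRT6 had their start under a peak in all 4 libraries. With a peak anywhere within 250 bp of the start counted, this number was 9, with KAT2B the exception. With the lists reduced to an equal number of top peaks, the number of libraries with the start under a peak was the same at each gene. Untreated replicate 2 was the shortest list and stayed whole in this reduction. The reduction therefore cannot tell whether list length set its count of 4.

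**Figure D3:**
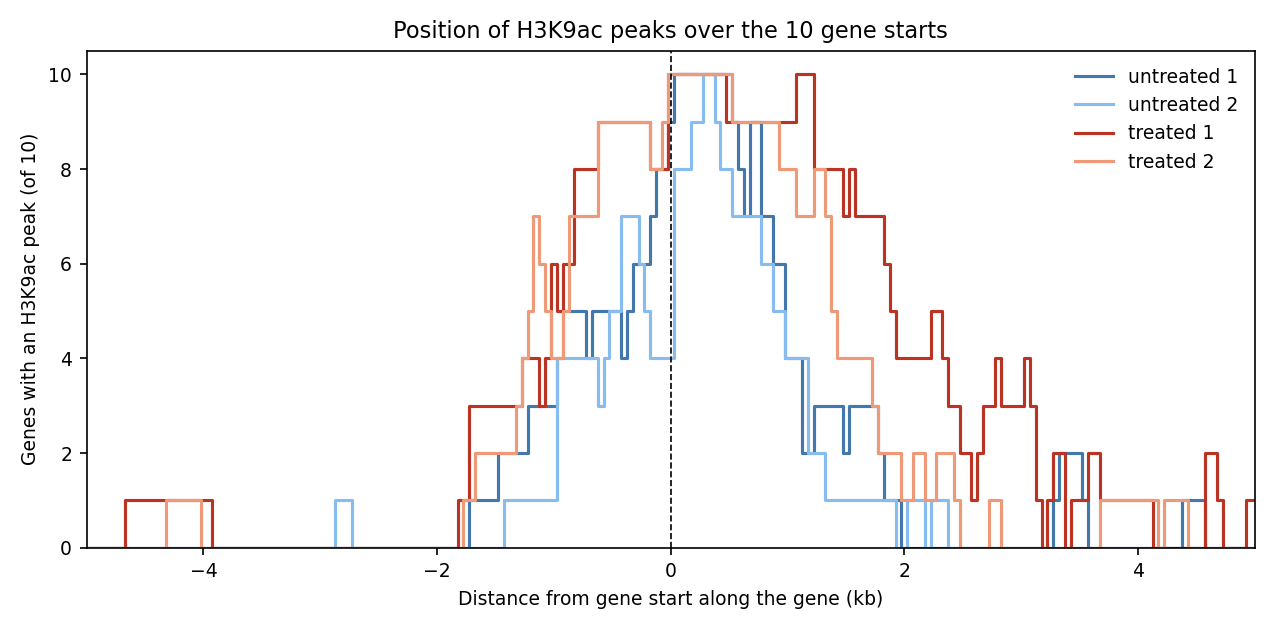
Number of the 10 genes with an H3K9ac peak at each distance from the start (kb along the gene, read every 50 bp), 1 line per library. Untreated replicate 2 drops to 4 genes at the start, where both treated libraries reach 10, and the treated lines are wider on both sides.

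Ranks within a library set aside how much each list covers. KAT2B moved from the 42.7 and 33.9 percentile of covered length among the comparison windows in untreated libraries to the 71.9 and 78.7 in treated ones. KAT2A moved the other way, from 24.0 and 10.2 to 7.61 and 2.49. EP300 was high throughout, at 75.6 and 81.2 untreated and 81.9 and 87.97 treated. These 3 genes and SIRT6 (44.3 and 51.4 untreated, 73.6 and 53.0 treated) were those whose ranks did not overlap between conditions, a description of 4 libraries with no test. Of the comparison windows 21.1% ranked higher in both treated libraries, as 3 of these genes did, and 25.6% ranked lower, as KAT2A did. The ranks of CREBBP, HDAC1, HDAC2, HDAC3, KAT5 and SIRT1 overlapped between conditions. In order of mean covered length the untreated cells gave EP300, SIRT1, CREBBP, KAT5, HDAC3, HDAC2, SIRT6, KAT2B, HDAC1 and KAT2A, and no neighbours in this order were further apart than the larger of their SDs. The treated cells gave EP300, KAT2B, SIRT1, CREBBP, SIRT6, KAT5, HDAC3, HDAC2, HDAC1 and KAT2A, where EP300 and KAT2B, and HDAC1 and KAT2A, were further apart than that.

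**Figure D4:**
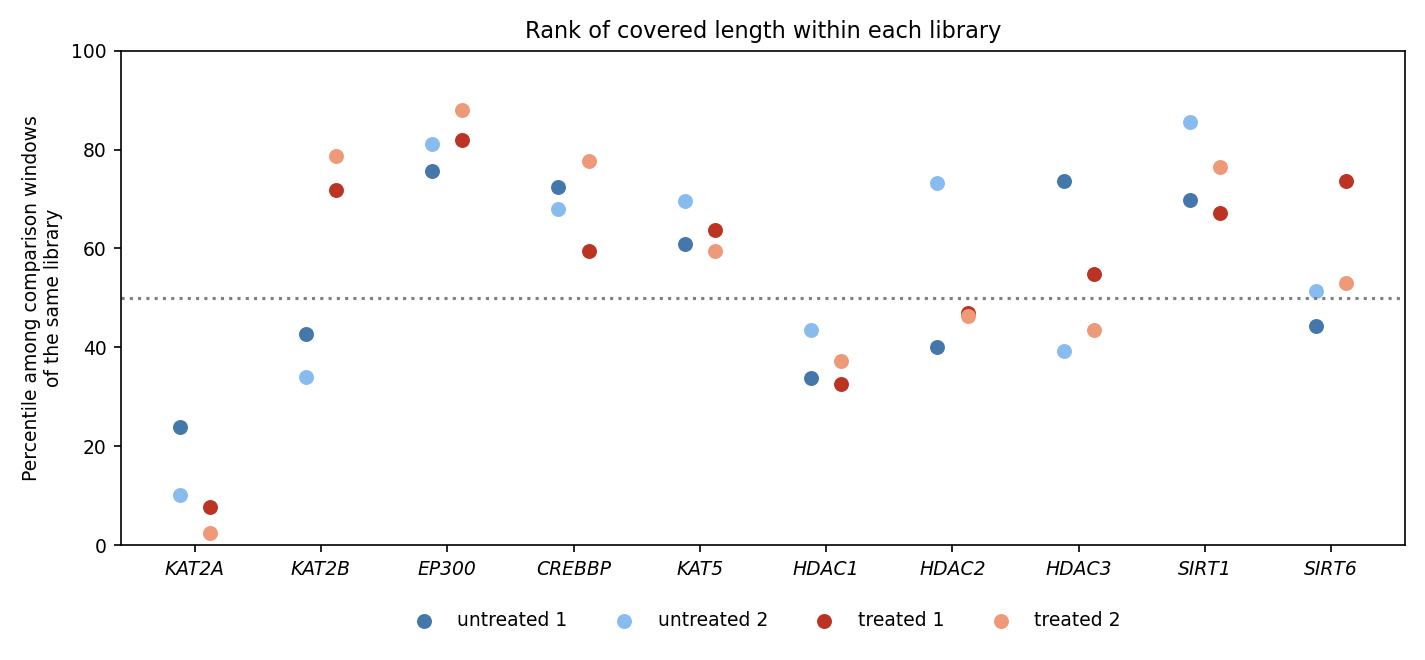
Percentile of each gene's covered length among 11387 comparison windows of the same library (vertical axis, percent), 1 point per library, with the dotted line at the median window. KAT2B is at 33.9 to 42.7 untreated and 71.9 to 78.7 treated, and KAT2A falls to 2.49 and 7.61.

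Across the 10 genes the difference in covered length went with the number of CpG in the promoter, as a description over 10 points that share the same 4 libraries. Spearman's rho was 0.827 over the 10 genes and 0.762 without KAT2A. The relation was not computed over the comparison windows, so whether it is particular to these genes was not tested. The CpG counts belong to the RefSeq starts, whose distance from the hg19 starts was not checked. KAT2B and EP300 had 40 CpG each and differences of 2344 and 2045 bp, and KAT2A had 18 and 217.5 bp. SIRT1, with 39 CpG, differed by 1288 bp, less than SIRT6 (29 CpG, 1762.5 bp), so the order was not strict. The GC box motif GGGCGG, searched on both strands, was in 7 of the 10 promoters and in 45.0% of all 35116. The motif itself holds a CpG, and each of the 10 promoters had more CpG than the median promoter (14). The 45.0% is thus not a background of like CpG content. KAT2A, EP300 and HDAC2 lacked the motif in this stretch.

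No H3K9me2 island touched any of the 10 windows in any of the 4 libraries. Of the comparison windows 2.39% met an island in at least 1 library, and of the 303421 tiles of 10 kb across the genome 21.2% did, so a count of 0 among 10 is near what acetylated places show. The genes differed greatly in how far the nearest island lay, from 37.5 kb to 28.6 Mb.

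KAT2B and SIRT1 were the closest to the silent mark, KAT2B in 3 libraries and SIRT1 in treated replicate 1. At KAT2B the nearest island was 37.5 and 185 kb away in untreated and 212 and 227 kb in treated cells, with the nearest of all, at 20036501 to 20044000 on chromosome 3, found in untreated replicate 1 alone. SIRT1 had islands 279 and 246 kb away untreated and 202 and 264 kb treated. HDAC3 had them at 468 and 469 kb untreated and 502 and 578 kb treated. Within 500 kb of KAT2B, islands covered 17.45% and 18.15% untreated and 16.35% and 13.8% treated, against 2.60% and 9.76% untreated and 12.75% and 8.05% treated around SIRT1.

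Other genes stood in long stretches without islands. CREBBP had its nearest island 28.6 Mb away in every library, no nearer than 32513501 on chromosome 16, and EP300 had its nearest 25.1 to 25.4 Mb away on a chromosome with 1 to 3 islands. HDAC2 lay in a stretch without islands of 71.7 Mb in both untreated libraries and of 74.2 and 74.0 Mb in the treated ones, on chromosome 6, which carried 340 to 426 islands elsewhere. SIRT6 was 5.65 and 5.40 Mb from an island untreated and 11.7 and 15.9 Mb treated. At KAT2B, HDAC3 and SIRT6 the nearest island was further in both treated libraries than in both untreated ones, 3 of 10 genes against 16.4% of the 11238 comparison windows on chromosomes with islands in all 4 libraries. Chromosome 19, which carries SIRT6, held 52 and 67 islands untreated and 20 and 35 treated. The median distance over the 10 genes was 3.71 and 2.01 Mb untreated and 3.13 and 6.36 Mb treated, and that of the comparison windows was 0.954 and 0.897 Mb untreated and 0.842 and 1.14 Mb treated. Copy number was not measured, and its part in where islands were called was not tested.

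**Figure D5:**
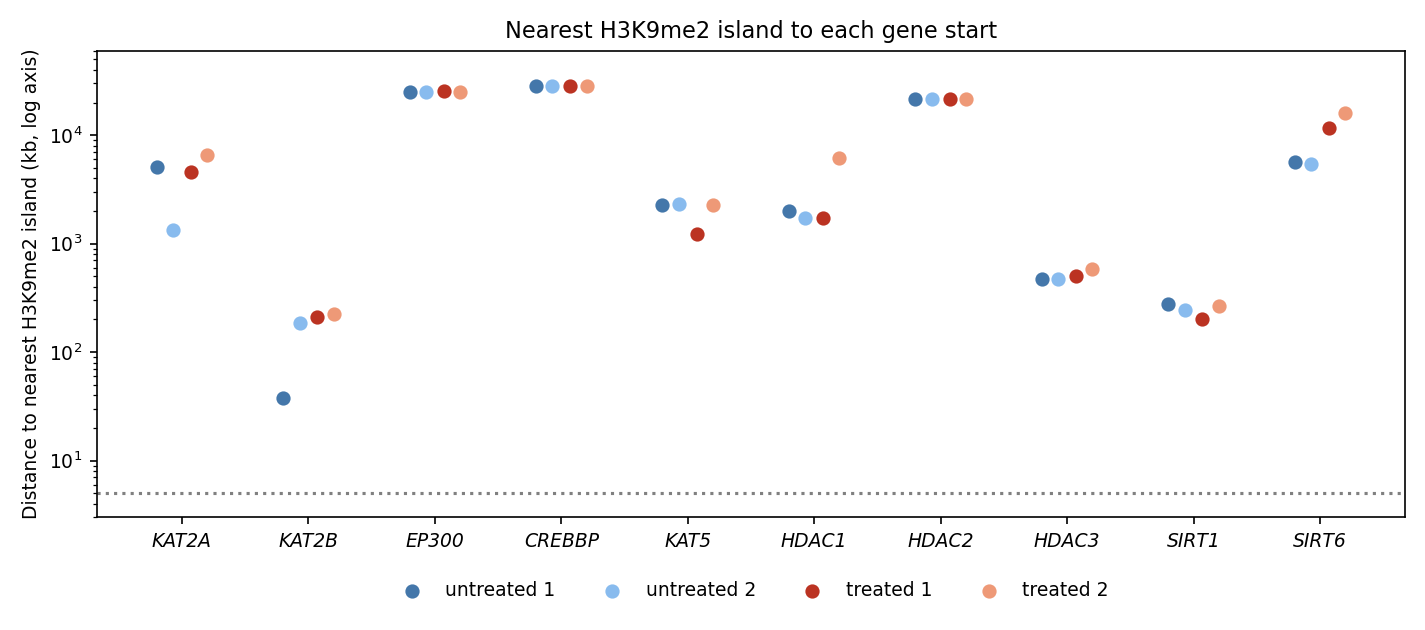
Distance (kb, log axis) from each gene start to the nearest H3K9me2 island, 1 point per library, with the dotted line at the edge of the 5 kb window. Every point lies above the line, KAT2B and SIRT1 are nearest, and CREBBP, EP300 and HDAC2 are farthest, at 21.7 to 28.6 Mb.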

How the data were processed

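H3K9ac and H3K9me2 intervals were read from 8 libraries, 2 per mark and condition, grouped by their labels. Per the submitters' processing notes, the build was hg19 and the tools were MACS2, SICER, Picard, BWA 0.7.5 and Trimmomatic 0.32, listed without their roles. The intervals come with a deposited score per peak or island, made by the authors' callers, and its scale is not given in the sources used here. Reproducible sets, as deposited, carry, from their values, a −log10 of the irreproducible discovery rate with a lowest value of 1.301. No reads were given, so depth is unknown and no counting interval was possible. The lists differ in how much of the genome they cover.

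Covered bases were summed in windows reaching 5 kb from each start. limma 3.58.1 (R 4.3.3) with a mean-variance trend tested the arcsine square root of the covered share over 11397 windows, the 10 members included, with Benjamini-Hochberg adjustment at 0.05. The procedure was tested on simulated data, with each window's own spread and with limma's moderated spread. Of 200 windows changed by 0.2 it recovered 0 and 4. Of 8000 changed by 0.15 it recovered 0 and 2358, and of 8000 changed by 0.3 it recovered 7216 and 7643. A difference near 0.15 that did not pass is therefore not shown to be absent. Exact two-sided permutation tests used SciPy 1.17.1 (Python 3.11.15, pandas 2.3.3, numpy 2.4.6, matplotlib 3.10.9). All 10 members are named. The members, lists and tests were chosen with earlier results of these data known. Promoter sequences are RefSeq's on GRCh38.p14; other acetylation genes were not placed on hg19 and were not analysed here. Alternatives were other window sizes, comparison windows, scales, list lengths, the replicate block and leaving out each replicate.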

Additional observations from a re-analysis of the deposited data

How the results depend on the processing

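Leaving out 1 library moved the number of the 10 genes that limma called higher between 0 and 4, the windows called higher between 66 and 4774, and those called lower between 0 and 37. With the replicate number as a block, 9 of the 10 genes and 8529 windows were called higher. Replicate 1 exceeded replicate 2 in both conditions (median 0.065 untreated and 0.072 treated, arcsine scale), a shift the block removes. Window by window the deviations of same-numbered libraries had r = -0.064 over 11397 windows, and the labels state no pairing, so the block was not used beside the results. Genome tiles of 10 kb gave 0 of the genes, 740 higher and 7 lower, and all merged regions gave 483 lower. Quantile normalization gave 0 of the genes (1 at an unadjusted p under 0.05) and 92 windows higher, and it reversed KAT2A (-0.080), CREBBP (-0.0028), KAT5 (-0.013), HDAC1 (-0.011), HDAC2 (-0.035), HDAC3 (-0.028) and SIRT1 (-0.031) on the arcsine scale. The limma difference of KAT2A ran from -0.025 to 0.101 when 1 library was left out. The excess of EP300 over CREBBP changed by -146 bp with windows of 2 kb. An H3K9me2 island was met at 1 gene within 50 kb and 2 within 250 kb. A peak within 250 bp of the start in all 4 libraries was found at 9 genes, against 4 with the start inside it. The cause of these shifts was not tested. The count of 8 genes without overlap was 8 or 9 with other windows and list lengths. Leaving out a library sets 1 against 2, which is easier to meet, so those counts are not comparable. At no gene were both treated libraries below both untreated ones. The mean difference at KAT2A was still negative within 2 kb (-88.5 bp) and with lists cut below an equal number of top peaks (-276 bp). It was also negative without untreated replicate 2 (-137 bp) and without treated replicate 1 (-136.5 bp). Comparison windows were not counted under these settings. Unknown depth limits every width.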
